A study of Mus musculus with 20 samples.

Results

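The enzymes that place or remove methyl groups on histone lysines were followed through the conversion of mouse extraembryonic endoderm stem (XEN) cells to induced pluripotent stem cells (XEN-iPS) and the conversion of embryonic stem (ES) cells to induced XEN cells (iXEN). The members were taken by name: every gene symbol that begins with Kdm, Kmt2, Kmt5, Setd (Setdb included), Smyd or Prmt, together with Ehmt1, Ehmt2, Suv39h1, Suv39h2, Nsd1, Ash1l, Ash2l, Dot1l and Wdr5. This gave 57 of the 22936 symbols in the count tables after 1 symbol on chromosome Y was left out. Of the 57 members, 56 had enough unique molecular identifiers (UMIs) to be tested, and Kdm4d, with 44 UMIs in 13 of the 20 libraries, was not. The name-based rule is broader than histone lysine methylation. The 8 Prmt genes encode arginine methyltransferases, Setd3 methylates a histidine of actin, Wdr5 and Ash2l are non-catalytic core subunits, and several Smyd and Setd proteins act mainly on proteins other than histones.

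Histone lysine methylation marks the state of chromatin according to the residue that carries it. Methyl groups on lysine 4 of histone H3 (H3K4) mark promoters and enhancers, those on H3K36 and H3K79 mark transcribed gene bodies, and those on H3K9, H3K27 and H4K20 mark repressed chromatin. Each site has its own writers, usually proteins with a SET domain, and its own erasers, the amine oxidases of the Kdm1 family and the oxygen- and 2-oxoglutarate-dependent JmjC enzymes. In pluripotent cells the balance of these enzymes is known for keeping developmental genes poised and for silencing retroelements.

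XEN cells (line 3F-4 XEN, Col1A1TetO-OKSmCh/TetO-OKSmCh with R26M2rtTA/M2rtTA and the reporter Oct4-GFPTg/Tg) carried a doxycycline-inducible cassette of Oct4, Klf4, Sox2 and mCherry and were derived from an embryo of a transgenic mouse strain. They were sampled after feeder culture with ascorbic acid and a GSK3 beta inhibitor without doxycycline (XEN), after 7, 14 and 28 days of doxycycline (day 7, day 14, day 28) with the same additives on embryonic fibroblast feeders, and as sorted, doxycycline-free XEN-iPS cells. ES cells (line iGata4-Gata6-Venus, Col1A1TetO-Gata4/+ with R26M2rtTA/+ and the reporter Gata6H2B-Venus/+) carried an inducible Gata4 transgene and were sampled untreated (ES), after 9h, 24h and 48h of doxycycline, and as iXEN cells that had been through induction and a doxycycline-free period. XEN-iPS cells were last kept on feeders in medium with serum and leukemia inhibitory factor, and ES cells in the same kind of medium. The paper does not list ascorbic acid or the inhibitor for these media. Between XEN and ES or XEN-iPS, a difference in medium and a difference in state therefore cannot be told apart. The day 7, day 14, day 28 and 9h cells were sorted into subpopulations by marker expression and recombined, so the sort set the mix of cells in these libraries. Per the labels each conversion used a single line, so that line and direction of conversion cannot be told apart, and the rtTA was expressed from the Rosa26 locus in all cells, controls included.

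Each of the 10 conditions had 2 libraries, described as technical duplicates, of 3′ single-cell RNA-seq. The p-values therefore measure only the spread between duplicates, estimated for each gene over all 20 libraries together. This spread is shared by all conditions, though the duplicates lay further apart in some than in others. Of 134279 deposited cells, 107274 were kept, and their UMIs were summed to between 45406709 and 126349921 per library. Pairs of libraries shared up to 104 cell barcodes, at most 1.55% of the smaller library. The SD of the log2 ratio between duplicates over well-detected genes ranged from 0.0749 (9h) to 0.745 (XEN-iPS), and the XEN-iPS libraries were also the pair that differed most in Y-linked RNA (the summed level of Ddx3y and Eif2s3y), at 0.296 CPM (UMI counts scaled to a common library total) in replicate 1 and 45.9 CPM in replicate 2. In the XEN libraries this level was 32.7 and 23.0 CPM, in the iXEN libraries 5.98 and 5.79 CPM, and in the ES to 48h libraries at most 0.121 CPM, although iXEN cells were derived from the ES line. Every day 7, day 14 and day 28 library lay below both XEN libraries too. Their lowest level was 0.104 CPM (day 28 replicate 2) and their highest 12.7 CPM (day 7 replicate 2). Whether all libraries of a conversion, and both XEN-iPS libraries, came from 1 line was not tested. ES and XEN are different lines per the labels. In ES against XEN, and in comparisons that use day 7, day 14, day 28, XEN-iPS or iXEN, a difference between lines and one between states cannot be told apart. Pluripotency markers summed to 5.82 and 6.05 CPM and endoderm markers to 12718 and 11181 CPM in the XEN libraries, and to between 6806 and 8464 CPM and between 129 and 157 CPM in the ES libraries, as their labels have it. Fibroblast markers were highest in XEN-iPS replicate 2 (91.0 CPM) and iXEN replicate 1 (33.0 CPM). Sequencing project followed condition for most libraries, and only the comparisons among XEN, ES and day 28 and that of day 14 against day 7 lay within a single project.

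Between pluripotent and endoderm stable states 14 to 23 of the 56 members tested were called. How this compared with all genes depended on the comparison and on the fold threshold. Between ES and XEN cells 14 of 56 members (25%) were called, 10 higher and 4 lower in ES, where 45.6% of all 16719 genes tested were called (23.5% higher and 22.1% lower). A call required an adjusted p under 0.05 by edgeR's quasi-likelihood test with Benjamini-Hochberg adjustment and a change of at least 2-fold (1 on the log2 scale). XEN-iPS against XEN also gave 14 called members, 8 higher and 6 lower, against 46.5% of all genes (26% higher and 20.5% lower). With another scaling of the libraries (RLE), under which the median over all genes moved from 0.00 to 0.20 on the log2 scale, this split was 11 higher and 5 lower. iXEN against ES gave 23 called members (41.1%), 7 higher and 16 lower, against 44.8% of all genes (25.2% higher and 19.6% lower). In each of these comparisons the calls higher in pluripotent cells include Prmt8 and Smyd1. Both passed the filter on low counts only through libraries in which they are higher. Without them XEN-iPS against XEN gave 12 called members and iXEN against ES gave 21. At an adjusted p under 0.05 alone, with no fold threshold, 30 of 56 members passed for ES against XEN, 28 for XEN-iPS against XEN and 35 for iXEN against ES, where 55.8%, 56.4% and 54.9% of all genes passed. The median log2 fold change of the members was 0.28 for ES against XEN, 0.05 for XEN-iPS against XEN and -0.22 for iXEN against ES, where the medians over all genes were 0.04, 0.00 and 0.08. In these bulk sums a lower level in fewer cells and a lower level per cell cannot be told apart.

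**Figure D1:**
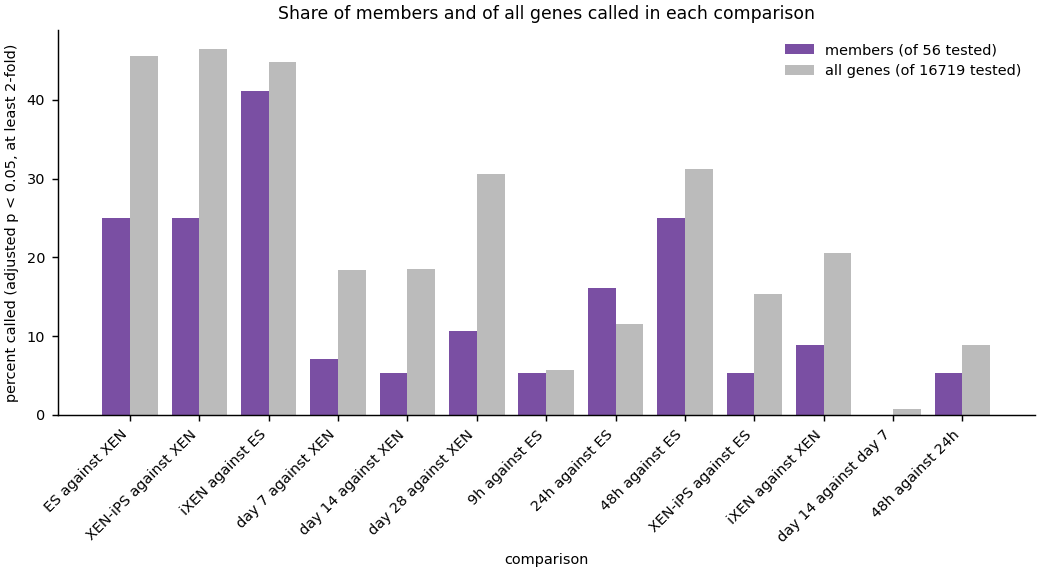
Percent of the 56 tested members (purple) and of all 16719 tested genes (grey) called in each of 13 comparisons, at an adjusted p under 0.05 and at least 2-fold. The member bar is below the bar of all genes in 12 of the comparisons, and above it at 24h against ES (16.1% against 11.5%), where 9 members fell to 4 with no cluster removed and to between 2 and 6 without 1 library.

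XEN-iPS against XEN and iXEN against ES share no library, and 11 members were called in both, each in opposite directions. Kdm5b, Kmt5c, Nsd1, Ash2l, Smyd1 and Prmt8 were higher in XEN-iPS than in XEN and lower in iXEN than in ES, and Setd7, Suv39h1, Prmt2, Kmt2c and Ash1l were the reverse. These 11 were 78.6% of the 14 and 47.8% of the 23 called members. They include Smyd1 (11 UMIs in XEN and 5 in iXEN) and Prmt8 (0 and 8), which passed the filter on low counts only through libraries in which they are higher, and without these the share was 9 of 12 (75%) and 9 of 21 (42.9%). No member was called in the same direction in both. Over all genes, 4442 were called in opposite directions, 57.1% of the 7779 and 59.4% of the 7484 called, and 352 in the same direction.

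Promoter sequences (RefSeq, GRCm38.p6, 300 bases that end shortly after the annotated start) were matched for 45 of the 57 members, Nsd1 and Ash2l not among them. They are shown for the members of this set that moved most in each direction for XEN-iPS against XEN, among those with a mean of at least 5 CPM and a sequence. For iXEN against ES, Kmt2c (1.83 on the log2 scale), not shown, moved more than Suv39h1 (1.64). Higher in pluripotent cells were Kdm5b (chr1:134559928-134560227, + strand) and Kmt5c (chr7:4739877-4740176, + strand). Higher in endoderm cells were Setd7 (chr3:51560774-51561073, - strand) and Suv39h1 (chrX:8074711-8075010, - strand, the first of the listed starts). Each runs 5′ to 3′ on the gene's strand, and capitals mark the letters GGGCGG (the GC box), GATAA (the core letters of GATA sites) or ATGCAAAT (the octamer bound by Oct4), searched on both strands with overlaps allowed.
Kdm5b: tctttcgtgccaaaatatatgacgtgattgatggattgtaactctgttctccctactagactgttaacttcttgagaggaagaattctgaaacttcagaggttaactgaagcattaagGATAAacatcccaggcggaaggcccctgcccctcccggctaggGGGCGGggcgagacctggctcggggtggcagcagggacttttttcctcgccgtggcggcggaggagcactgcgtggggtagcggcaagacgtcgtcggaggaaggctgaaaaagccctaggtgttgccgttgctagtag
Kmt5c: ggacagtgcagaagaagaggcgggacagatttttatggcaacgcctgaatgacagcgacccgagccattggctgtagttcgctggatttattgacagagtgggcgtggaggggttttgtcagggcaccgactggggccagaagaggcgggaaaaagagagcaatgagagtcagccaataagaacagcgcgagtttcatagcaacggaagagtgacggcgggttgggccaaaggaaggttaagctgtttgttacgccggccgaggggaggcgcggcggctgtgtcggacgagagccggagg
Setd7: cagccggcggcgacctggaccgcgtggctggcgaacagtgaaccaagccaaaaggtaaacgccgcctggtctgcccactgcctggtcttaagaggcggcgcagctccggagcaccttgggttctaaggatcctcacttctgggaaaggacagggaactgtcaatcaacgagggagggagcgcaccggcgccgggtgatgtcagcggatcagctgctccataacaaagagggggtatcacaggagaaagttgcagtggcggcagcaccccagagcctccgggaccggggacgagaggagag
Suv39h1: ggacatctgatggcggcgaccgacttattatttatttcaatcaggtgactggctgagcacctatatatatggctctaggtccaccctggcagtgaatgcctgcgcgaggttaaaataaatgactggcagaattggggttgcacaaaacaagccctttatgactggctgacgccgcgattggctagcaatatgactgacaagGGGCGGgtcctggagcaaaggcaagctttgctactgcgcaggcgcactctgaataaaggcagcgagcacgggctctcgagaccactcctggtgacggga
Kdm5b held 1 GC box and 1 GATAA, Suv39h1 held 1 GC box, and Kmt5c and Setd7 held no match in these windows. Among the 45 member promoters 66.7% held a GC box, against 35.9% of the 27025 promoters in the table, 17.8% held GATAA against 25.8%, and none held the octamer against 1.75%. The median number of CG dinucleotides was 22 in the member promoters and 7 over the whole table, which also lists non-coding and predicted genes.

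**Figure D2:**
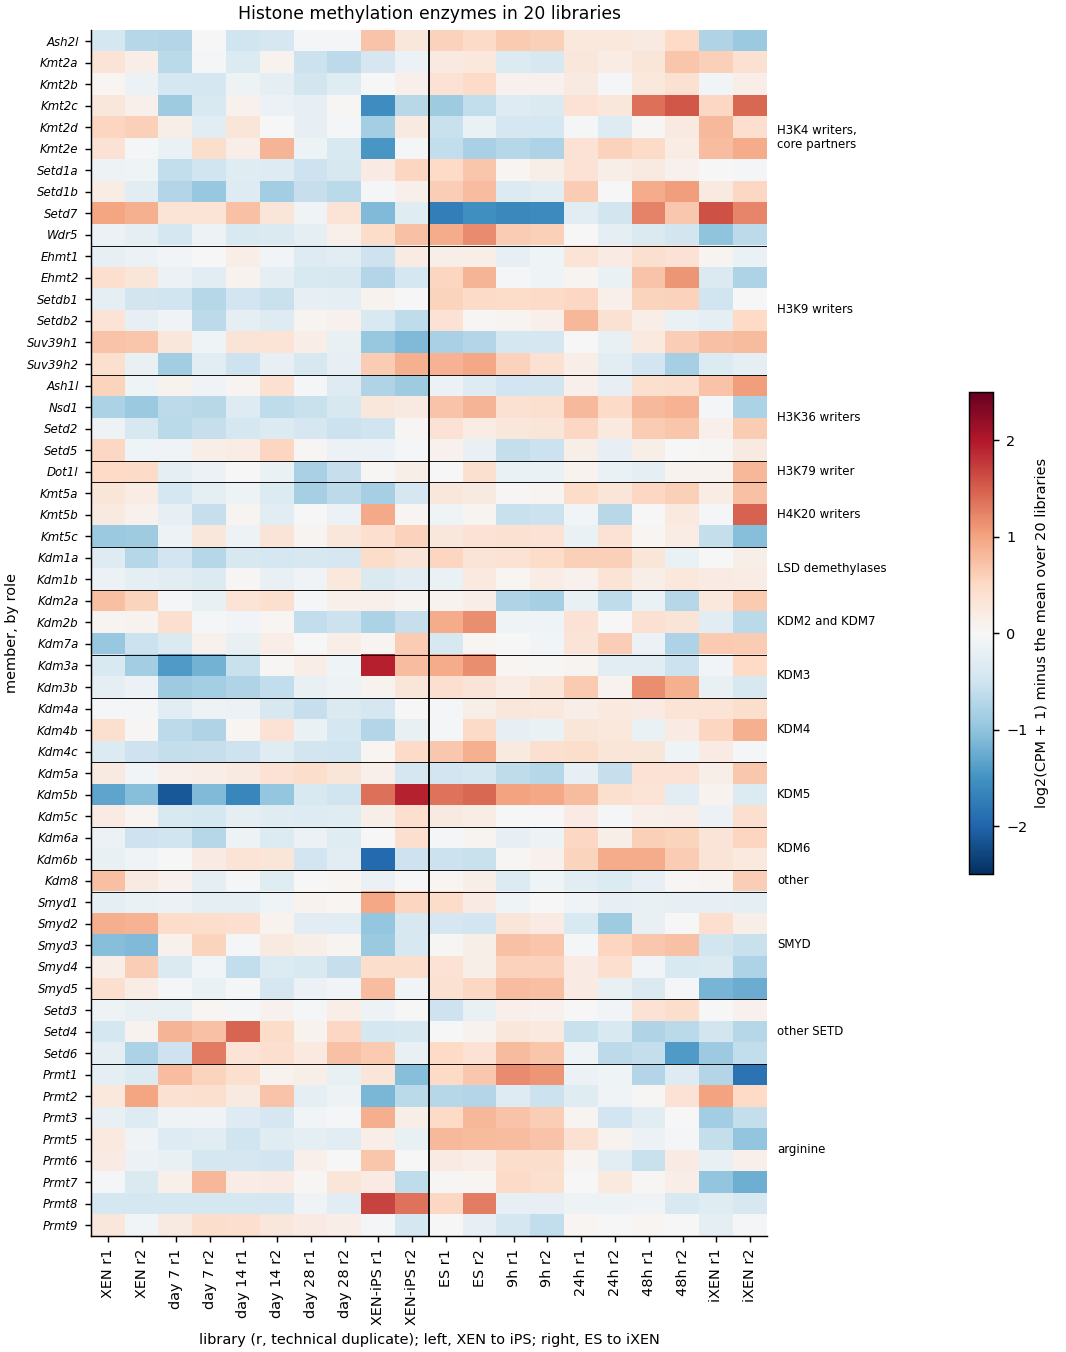
Level of the 56 tested members (rows, by role) in each of the 20 libraries (columns, the XEN to iPS conversion left of the line and ES to iXEN right of it), as log2(CPM + 1) minus the member's mean over the libraries. Kdm5b and Kdm3a are high in the XEN-iPS and ES columns, and Setd7 and Suv39h1 are low there.

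Of the 10 H3K4 writers and their core partners, 3 were called between ES and XEN, where 45.6% of all genes were. These were Setd7 and the shared subunits Wdr5 and Ash2l. Kmt2c, Kmt2d, Kmt2e and Setd1a also had every ES and XEN-iPS library on the same side of every XEN and iXEN library. Setd7, which monomethylates H3K4 and several non-histone proteins, measured 18.5 and 17.2 CPM in XEN, 1.99 and 2.41 CPM in ES, 3.61 and 7.05 CPM in XEN-iPS and 28.8 and 21.9 CPM in iXEN. Both pluripotent conditions lay below both endoderm conditions. The log2 fold change of Setd7 was -3.02 ± 0.32 (SE, adjusted p = 1.48e-06) for ES against XEN and 3.53 ± 0.33 (adjusted p = 5.06e-07) for iXEN against ES. For XEN-iPS against XEN it was -1.75 ± 0.31 (adjusted p = 0.000188), and this call was lost when no cluster of cells was removed (-0.81, adjusted p = 0.137). The same setting gave -2.05 for ES against XEN and 2.49 for iXEN against ES, both still called.

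Wdr5, the subunit that anchors the catalytic SET proteins in their complexes, measured 75.0 and 89.0 CPM in ES and 34.8 and 33.2 CPM in XEN, a log2 fold change of 1.27 ± 0.20 (adjusted p = 7.96e-05). It was 18.7 and 24.3 CPM in iXEN, a log2 change from ES of -1.93 ± 0.21 (adjusted p = 2.09e-06). In XEN-iPS it stood at 53.4 and 65.0 CPM, above both XEN libraries, and the change of 0.80 ± 0.20 fell short of the 2-fold threshold (adjusted p = 0.00337). Ash2l, the partner that stimulates their activity, was 130 ± 6.67 CPM in ES and 60.0 ± 8.29 CPM in XEN (SD, n = 2), and it was called in all 3 comparisons of stable states given above, with log2 changes of 1.11, 1.10 and -1.38. The first call was lost without XEN replicate 2 (0.99), and the second without XEN-iPS replicate 1 (0.93) or with no cluster removed (0.81).

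No member of the Kmt2 and Setd1 families, which form the core of the large complexes, was called between ES and XEN. For Kmt2c, Kmt2d and Kmt2e the log2 differences were -0.97, -0.99 and -0.93 (adjusted p = 0.013, 0.0129 and 0.0406), just short of 2-fold. Kmt2c and Kmt2d place single methyl groups at enhancers, and Kmt2e binds methylated H3K4 without known catalytic activity. For Setd1a, Setd1b and Kmt2b, which write trimethyl H3K4 at promoters, they were 0.75, 0.76 and 0.49 (adjusted p = 0.00194, 0.0164 and 0.0269), also short of the threshold, and for XEN-iPS against XEN 0.52, 0.08 and 0.11. Kmt2a measured 29.1 and 29.8 CPM in ES and 31.3 and 27.7 CPM in XEN, and these overlapped. Some alternatives passed the threshold for ES against XEN, namely Kmt2c with no cluster removed (-1.02), without ES replicate 2 (-1.06) or without XEN replicate 2 (-1.05), Kmt2d without ES replicate 2 (-1.17) and Setd1b without XEN replicate 1 (1.06).

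Kmt2c was called in 5 comparisons, with its highest mean at 48h. It measured 28.6 and 34.4 CPM in ES, 42.7 and 41.6 CPM at 9h, 69.2 and 65.0 CPM at 24h, 140 and 158 CPM at 48h and 76.9 and 147 CPM in iXEN. The 48h libraries lay above both 24h libraries, and the iXEN duplicates were far apart. The log2 fold change from ES was 1.09 ± 0.31 at 24h (adjusted p = 0.0264), 2.24 ± 0.32 at 48h (adjusted p = 5.96e-05) and 1.83 ± 0.31 in iXEN (adjusted p = 0.000159). Each of the 4 libraries was needed for the 24h call (0.93 to 1.19 without one of them). In the other conversion Kmt2c fell by 1.30 ± 0.31 from XEN to XEN-iPS (adjusted p = 0.00204), to 17.5 and 32.7 CPM from 65.7 and 58.2 CPM, a call that was lost without XEN-iPS replicate 1 (-0.85). Kmt2e was higher than in ES at 24h (35.0 and 40.8 CPM), 48h (38.2 and 30.8 CPM) and iXEN (46.6 and 52.0 CPM), where ES measured 17.2 and 15.1 CPM, with log2 changes of 1.23, 1.10 and 1.61. Its 24h and 48h calls needed each of the 4 libraries (1.07 to 1.31 and 0.85 to 1.16 without one of them) and were lost with no cluster removed (1.13, adjusted p = 0.0711, and 0.95, adjusted p = 0.0568). Kmt2d was called in iXEN against ES alone, at 20.3 ± 4.07 CPM against 9.74 ± 2.05 CPM (1.06), and this call was lost in 6 of 12 alternatives, with log2 changes down to 0.72 (without iXEN replicate 1).

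Of the enzymes that remove H3K4 methylation, Kdm5b differed most. This demethylase of di- and trimethyl H3K4 measured 35.0 and 41.7 CPM in XEN, 227 and 242 CPM in ES, 231 and 337 CPM in XEN-iPS and 94.0 and 69.5 CPM in iXEN. Every pluripotent library was above every endoderm library of these stable states. Kdm5b was 2.61 ± 0.35 higher in ES than in XEN (adjusted p = 1.41e-05), 2.89 ± 0.35 higher in XEN-iPS than in XEN (adjusted p = 6.46e-06) and differed by -1.52 ± 0.34 in iXEN against ES (adjusted p = 0.00137), on the log2 scale. iXEN cells stayed above XEN cells by 1.09 ± 0.33 (adjusted p = 0.0241), a call that was lost without either XEN replicate or without iXEN replicate 1 (log2 changes of 0.96, 1.13 and 0.79).

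Its relatives moved less. Kdm5a measured 30.4 and 31.5 CPM in ES and 50.5 and 40.8 CPM in XEN, a log2 difference of -0.56 ± 0.22 (adjusted p = 0.0414) and short of 2-fold. The X-linked Kdm5c measured 30.6 and 29.9 CPM in ES and 30.2 and 27.5 CPM in XEN, a difference of 0.07 ± 0.19 on the log2 scale (adjusted p = 0.781). The flavin-dependent Kdm1a (Lsd1), which removes mono- and dimethyl groups, was 42.8 ± 4.51 CPM in ES and 21.9 ± 4.32 CPM in XEN, at 0.97 ± 0.20 (adjusted p = 0.000642). It passed the 2-fold threshold with DESeq2 or RLE scaling (1.06 with each) and with no filter on low counts (1.02). Its log2 difference was also above 1 without ES replicate 2 (1.12) or XEN replicate 1 (1.24). Kdm1b, its relative known from oocytes, was at 1.75 to 3.06 CPM in the XEN, ES, 9h, 24h, 48h and iXEN libraries and was called in no comparison.

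**Figure D3:**
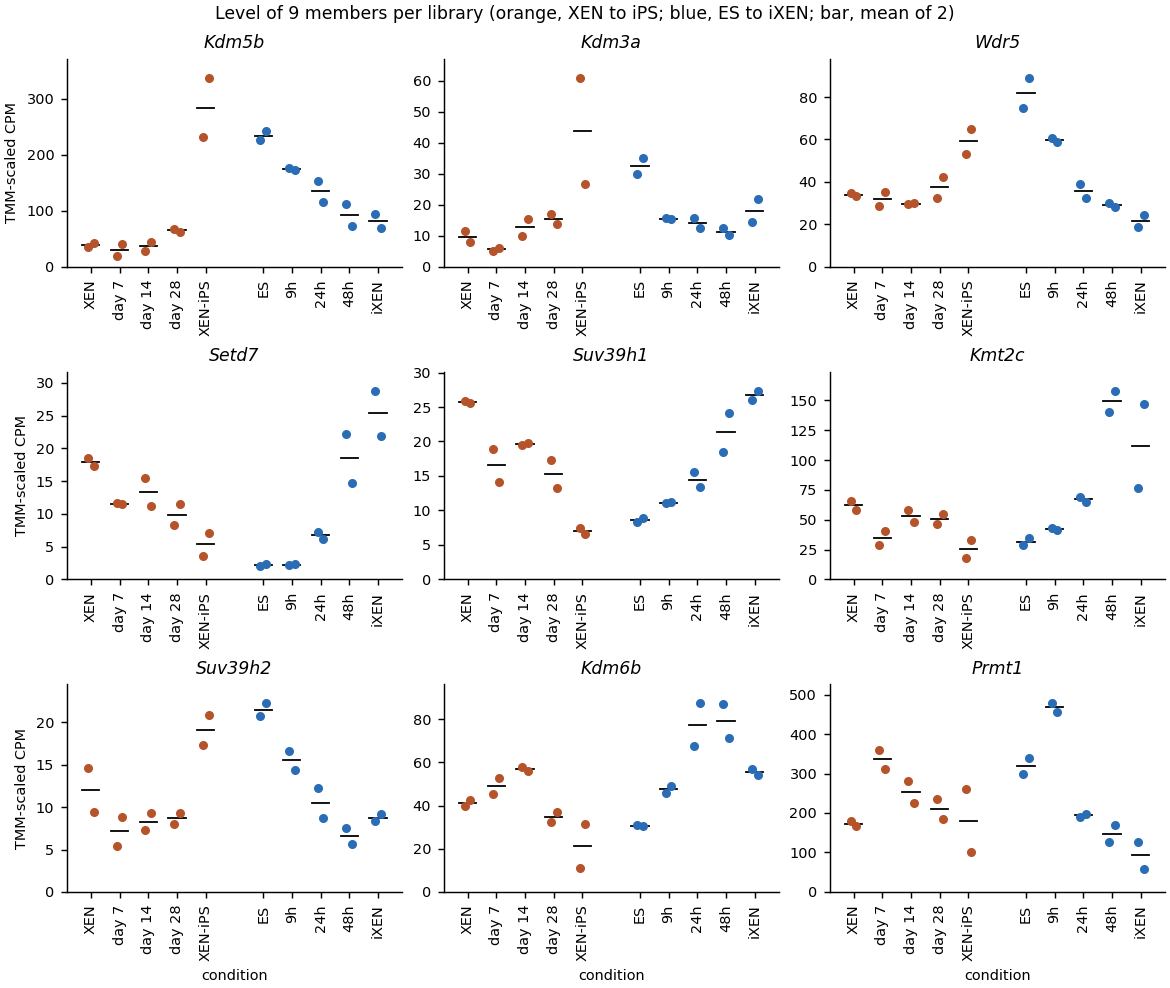
Level in TMM-scaled CPM (vertical axes, from 0) of 9 members in each of the 20 libraries, by condition (horizontal axes), with points for libraries and bars for the mean of the duplicates, orange for XEN to iPS and blue for ES to iXEN. Kdm5b is at 227 and 242 CPM in ES and 94.0 and 69.5 CPM in iXEN, while Setd7, Suv39h1 and Kmt2c are higher at 48h and in iXEN than in ES.

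The H3K9 writers Suv39h1 and Suv39h2, which both place trimethyl H3K9 in pericentromeric heterochromatin, ran in opposite directions from ES to iXEN. Suv39h1 measured 25.9 and 25.6 CPM in XEN, 8.32 and 8.88 CPM in ES, 7.46 and 6.63 CPM in XEN-iPS and 26.1 and 27.4 CPM in iXEN. The pluripotent libraries all lay below the endoderm libraries. The log2 fold change was -1.58 ± 0.21 for ES against XEN (adjusted p = 1.17e-05), -1.87 ± 0.21 for XEN-iPS against XEN (adjusted p = 3e-06) and 1.64 ± 0.21 for iXEN against ES (adjusted p = 1.01e-05). Suv39h2 measured 20.7 and 22.3 CPM in ES and 8.33 and 9.20 CPM in iXEN, a log2 change of -1.29 ± 0.28 (adjusted p = 0.00109), and was 0.83 ± 0.27 higher in ES than in XEN (14.6 and 9.49 CPM, adjusted p = 0.0172), short of 2-fold. Suv39h1 lies on the X chromosome, as do Kdm5c and Kdm6a, and the libraries differed in X- and Y-linked RNA, with Xist at 24.3 and 23.7 CPM at day 28 and at most 2.49 CPM in the stable states. The part of this in the level of Suv39h1 was not tested.

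Of the euchromatic H3K9 dimethyl writers, Ehmt2 was lowest in the converted states. Ehmt2 (G9a) measured 79.5 and 98.9 CPM in ES, 72.6 and 67.4 CPM in XEN, 32.1 and 39.8 CPM in XEN-iPS and 42.2 and 31.3 CPM in iXEN. Both converted states were below both starting states. They also came from other sequencing projects than the starting states, so a difference by state and one by project cannot be told apart. The log2 difference of Ehmt2 was -1.28 ± 0.21 for iXEN against ES (adjusted p = 0.000131) and -1.31 ± 0.21 for XEN-iPS against ES (adjusted p = 0.000831). For XEN-iPS against XEN it was -0.96 ± 0.21 (adjusted p = 0.00124). The XEN-iPS against ES call was lost when only the 4 compared libraries were modelled (-1.27, adjusted p = 0.0549). Its partner Ehmt1 (GLP) was at 44.1 to 56.7 CPM in the XEN and ES libraries and was called in no comparison. Setdb1, which silences endogenous retroviruses with Trim28, was 34.1 ± 1.29 CPM in ES and 18.5 ± 2.22 CPM in XEN, higher by 0.88 ± 0.20 (adjusted p = 0.0015) and short of 2-fold. Setdb2 was at 2.14 to 7.82 CPM in the 20 libraries.

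Of the erasers of H3K9 methylation, Kdm3a, a mono- and dimethyl H3K9 demethylase, was higher in pluripotent cells. It measured 11.4 and 7.81 CPM in XEN, 29.8 and 35.2 CPM in ES, and 60.9 and 26.5 CPM in XEN-iPS. The log2 fold change was 1.76 ± 0.35 for ES against XEN (adjusted p = 0.000498) and 2.19 ± 0.35 for XEN-iPS against XEN (adjusted p = 8.49e-05). In iXEN it measured 14.4 and 21.8 CPM, a log2 difference from ES of -0.84 ± 0.34 (adjusted p = 0.046) and short of 2-fold. Kdm4c, a trimethyl H3K9 demethylase, was 21.1 ± 2.21 CPM in ES and 8.54 ± 0.837 CPM in XEN, higher by 1.30 ± 0.22 (adjusted p = 0.000128). Kdm4a and Kdm4b were not called between the stable states. Kdm7a, which acts on dimethyl H3K9 and H3K27, was at 3.21 and 4.57 CPM in XEN and was higher in both end states, at 7.44 and 11.6 CPM in XEN-iPS (1.29 ± 0.32, adjusted p = 0.00283) and 11.7 and 11.5 CPM in iXEN (1.58 ± 0.32 against XEN, adjusted p = 0.00244).

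Of 4 writers of H3K36 methylation, 1 of H3K79 and 3 of H4K20, 1, 0 and 1 were called between ES and XEN, where 45.6% of all genes were. Nsd1, a dimethyl H3K36 writer, measured 41.9 and 46.2 CPM in ES, 14.2 and 12.9 CPM in XEN, 31.1 and 30.0 CPM in XEN-iPS and 24.5 and 14.2 CPM in iXEN. It was 1.70 ± 0.23 higher in ES than in XEN (adjusted p = 1.7e-05). Its XEN-iPS against XEN call (1.17) was lost with no cluster removed (0.98), and its iXEN against ES call (-1.19) without iXEN replicate 2 (-0.95). Ash1l, another H3K36 writer, ran the other way and was 54.1 ± 8.98 CPM in iXEN, 24.4 ± 1.98 CPM in ES, 34.7 ± 11.6 CPM in XEN and 15.9 ± 1.08 CPM in XEN-iPS. Its XEN-iPS against XEN call (-1.12) was lost in 6 of 12 alternatives, with a value of -0.68 without XEN replicate 1, and its iXEN against ES call (1.15) without ES replicate 2 (0.95) or iXEN replicate 2 (0.87). Kmt5c, which places trimethyl H4K20 in heterochromatin, measured 8.77 and 9.05 CPM in XEN, and all 8 later libraries of that conversion lay between 16.03 and 26.6 CPM. It was 1.32 ± 0.24 higher in ES (21.5 and 22.8 CPM, adjusted p = 0.000284) and 1.50 ± 0.24 higher in XEN-iPS than in XEN (adjusted p = 9.52e-05). Dot1l, the H3K79 writer, measured 47.6 and 47.0 CPM in XEN and 18.8 and 22.1 CPM at day 28, a log2 change of -1.21 ± 0.23 (adjusted p = 0.000886), and was called in no other comparison.

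Neither H3K27 demethylase of the Kdm6 group was called between ES and XEN. The X-linked Kdm6a (Utx) measured 16.7 and 17.8 CPM in ES and 15.4 and 11.5 CPM in XEN (0.36 ± 0.21, adjusted p = 0.166). Kdm6b (Jmjd3), an inducible demethylase, measured 30.8 and 30.4 CPM in ES and 39.8 and 42.7 CPM in XEN (-0.43 ± 0.32, adjusted p = 0.269). During induction Kdm6b was higher than in ES at 24h (67.4 and 87.4 CPM, 1.34 ± 0.32, adjusted p = 0.0123) and 48h (86.8 and 71.4 CPM, 1.37 ± 0.32, adjusted p = 0.00361), and it measured 56.9 and 54.0 CPM in iXEN. The 24h call was lost without either ES replicate or without 24h replicate 2 (log2 changes of 1.32, 1.29 and 1.09). Kdm2b, an H3K36 demethylase that brings Polycomb to CpG islands, measured 72.5 and 84.9 CPM in ES and between 21.3 and 50.04 CPM in each of the other 18 libraries. Its log2 difference was -1.18 ± 0.20 at 9h (adjusted p = 0.00353), -1.54 ± 0.21 in iXEN (adjusted p = 1.69e-05) and -1.77 ± 0.21 in XEN-iPS (adjusted p = 8.94e-05), each against ES. Without either 9h replicate the 9h adjusted p was 0.0669 or 0.0594.

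The Smyd enzymes, with a split SET domain, act largely on non-histone proteins. Smyd2 measured 71.6 and 70.2 CPM in XEN and 27.5 ± 0.668 CPM (SD, n = 2) in ES, a log2 difference of -1.37 ± 0.22 (adjusted p = 9.44e-05), and the difference was -1.59 ± 0.23 for XEN-iPS against XEN (adjusted p = 2.71e-05). Smyd3 measured 5.63 and 5.52 CPM in XEN, 13.2 and 14.5 CPM in ES and 6.28 and 9.62 CPM in XEN-iPS. Smyd5 was 14.9 ± 0.617 CPM in iXEN, below ES (49.2 ± 3.50 CPM) and XEN (44.3 ± 4.74 CPM), with log2 changes of -1.72 ± 0.25 (adjusted p = 4.45e-05) and -1.57 ± 0.25 (adjusted p = 0.000512). The muscle gene Smyd1 stayed at or under 1.36 CPM in every library.

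The arginine methyltransferases Prmt1, Prmt3, Prmt5, Prmt7 and Prmt8 were lower in iXEN than in ES, and Prmt2 was higher. Prmt1, the main source of asymmetric dimethylarginine, measured 298 and 338 CPM in ES and 127 and 58.3 CPM in iXEN (-1.78 ± 0.38, adjusted p = 0.00101). Prmt5, the main source of symmetric dimethylarginine, measured 70.6 and 69.5 CPM in ES and 26.0 and 19.7 CPM in iXEN (-1.62 ± 0.20, adjusted p = 8.46e-06). In XEN these genes measured 179 and 167 CPM (Prmt1, with a log2 difference of 0.88 ± 0.37 for ES against XEN, adjusted p = 0.0551) and 47.8 and 37.5 CPM (Prmt5, 0.72 ± 0.20 higher in ES, adjusted p = 0.00604). Prmt2, a coactivator of nuclear receptors, measured 14.9 and 25.4 CPM in XEN, 7.06 and 6.98 CPM in ES, 4.99 and 7.34 CPM in XEN-iPS and 25.5 and 17.7 CPM in iXEN, and it was called in all 3 comparisons of these states, at -1.52, -1.71 and 1.62. Prmt8, known as a membrane-bound enzyme of the brain, had no UMI in the XEN, day 7 and day 14 libraries, 40 at day 28, 376 in XEN-iPS (245 and 131) and 382 in ES (97 and 285). Against a floor of 3 UMIs over the XEN libraries it was at least 123-fold higher in ES and at least 221-fold higher in XEN-iPS. Leaving out 1 library moved these bounds to between 61 (without XEN replicate 2) and 168 (without ES replicate 1) for ES, with 68.5 without ES replicate 2 and 61.8 without XEN replicate 1, and to between 110 (without XEN replicate 2) and 249 (without XEN-iPS replicate 2) for XEN-iPS, with 111 without XEN replicate 1. Setting Prmt8 at this bound left the median log2 fold change of the members at 0.28 and 0.05.

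The XEN-iPS duplicates came from different sequencing projects, and 3831 of the 6825 cells with at least 500 genes in replicate 2 were removed, against 575 of 4259 in replicate 1. Without replicate 1, XEN-iPS against XEN gave 13 called members and 7751 called genes over all genes tested, and without replicate 2 it gave 22 members and 7771 genes. Kdm5b was at 3.21 and 2.68, Kdm3a at 1.53 and 2.74, Kdm7a at 1.65 and 1.02, Kmt5c at 1.65 and 1.50, Suv39h1 at -1.89 and -1.70, Setd7 at -1.28 and -2.22, Prmt2 at -1.38 and -1.92, and Smyd2 at -1.25 and -1.83 on the log2 scale in these 2 fits, all called in both.

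The XEN to iPS time course had few called members. At day 7 the 4 called members were Smyd3, Kmt5c and Setd4, higher, and Kdm4b, lower, where 18.4% of all genes were called (11.6% higher and 6.85% lower). Day 14 gave 3 (Smyd3, Kmt5c and Setd4, all higher, with 18.5% of all genes called, 12.6% higher and 5.87% lower) and day 28 gave 6 (Prmt8, Smyd1, Smyd3 and Kmt5c higher, Dot1l and Smyd2 lower, with 30.6% of all genes called, 21.6% higher and 8.97% lower), all against the same XEN libraries. Of the day 28 calls, Prmt8 (0 UMIs in XEN and 40 at day 28) and Smyd1 (11 and 50) passed the filter on low counts only through libraries in which they are higher, and Smyd1 was not called without XEN replicate 1 (1.77) or day 28 replicate 1 (2.34). At day 7 Smyd3 measured 14.0 and 19.4 CPM, at day 14 12.5 and 15.2 CPM, and at day 28 14.5 and 13.5 CPM, every library above those of XEN (5.63 and 5.52 CPM), with log2 changes of 1.58 ± 0.25, 1.32 ± 0.25 and 1.33 ± 0.25 (adjusted p = 0.000444, 0.00151 and 0.000683). Kmt5c was higher by 1.08, 1.10 and 1.17 at the 3 times (adjusted p = 0.00477, 0.0042 and 0.00147). Its day 7 and day 14 calls were lost without replicate 2 of that day (0.84 and 0.85). At day 7 Setd4 measured 21.4 and 19.6 CPM, at day 14 33.4 and 16.2 CPM and in XEN 8.14 and 12.3 CPM, and these calls were lost without XEN replicate 1 (log2 changes of 0.73 and 1.00). The day 7 call was also lost without either day 7 replicate (0.96 and 1.06) and with no cluster removed (0.93, adjusted p = 0.0433), and the day 14 call without day 14 replicate 1 (0.67). Kdm4b, at 3.64 and 3.32 CPM at day 7 and 8.60 and 6.44 CPM in XEN, was not called without XEN replicate 1 (-0.90) or day 7 replicate 2 (-1.05). Kdm5b overlapped XEN at day 7 (19.6 and 40.8 CPM) and at day 14 (27.8 and 44.6 CPM). Between day 14 and day 7 edgeR called 0 members, or 1 with sequencing project as a block, where 3 had an unadjusted p under 0.05, DESeq2 called 2, and 0.712% of all genes were called (0.574% higher and 0.138% lower).

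The day 28 libraries held cells on both sides of the conversion. With 1 added to each CPM, 10 of the 57 members differed at least 2-fold between these sides in both replicates. Of these, 5 were higher and 5 lower on the pluripotent side. The share of all genes that differed in this way was not computed, so the count has no background beside it. Clusters of cells, made without the members, were assigned to the pluripotent side where the summed pluripotency markers exceeded the summed endoderm markers, and to the endoderm side otherwise. By this rule a cluster of the conversion with 3882.5 CPM of pluripotency and 9927.6 CPM of endoderm markers counted as endoderm. The endoderm side can therefore include cells with both sets of markers. The pluripotent side held 918 cells in replicate 1 and 450 in replicate 2, and the endoderm side 4563 and 1527. Kdm5b measured 171 and 138 CPM on the pluripotent side and 27.2 and 25.6 CPM on the endoderm side. Kdm3a measured 31.1 and 25.5 CPM against 11.6 and 8.68 CPM, Wdr5 56.1 and 72.3 CPM against 23.4 and 29.4 CPM, and Kdm1a 40.3 and 37.7 CPM against 17.4 and 17.3 CPM. In the other direction Kmt2c measured 19.4 and 20.6 CPM on the pluripotent side and 57.2 and 78.4 CPM on the endoderm side, Kdm6b 16.7 and 19.4 CPM against 38.8 and 50.5 CPM, Suv39h1 7.68 and 8.26 CPM against 21.2 and 17.3 CPM, and Setd7 2.755 and 5.44 CPM against 10.6 and 15.8 CPM. These values describe cells grouped by their own expression, so no test was made. Of the other members 38 had the same direction in both replicates with less than 2-fold in at least 1 of them. Suv39h1 (-1.36 and -0.98 on the log2 scale), Smyd2, Prmt3 and Prmt8 were among these 38. In CPM without the added 1, each of them was at least 2-fold apart in both replicates. No shared direction was seen for 9 members, Nsd1 (0.22 and -0.10 on the log2 scale) and Setd1b (0.20 and -0.36) among them. Kmt5c and Smyd3, which were called at day 28, were nearer between the sides, at 22.0 and 27.4 CPM against 17.5 and 20.1 CPM and at 12.9 and 12.1 CPM against 15.2 and 15.5 CPM.

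**Figure D4:**
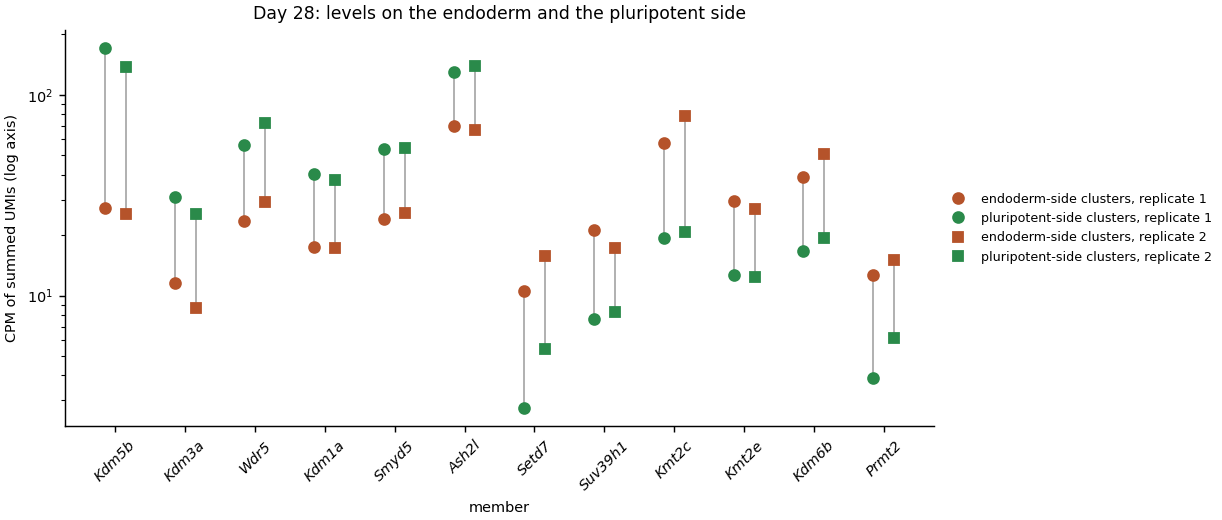
CPM of summed UMIs (log axis) of 12 members in the day 28 libraries, on the endoderm-side (orange) and pluripotent-side (green) clusters of replicate 1 (circles) and replicate 2 (squares). The first 6 members are higher on the pluripotent side in both replicates and the last 6 are lower.

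Members were called from 9h onward in the ES to iXEN direction. At 9h Prmt8, Kdm2b and Setd1b were lower than in ES, 5.36% of the members, where 5.74% of all genes were called (2.66% higher and 3.08% lower). No member was called without either 9h replicate, and Prmt8 (39 UMIs at 9h and 382 in ES) passed the filter on low counts through libraries in which it is higher. Setd1b measured 18.3 and 18.9 CPM at 9h and 36.5 and 40.6 CPM in ES (-1.05 ± 0.25, adjusted p = 0.0189), and the call was lost without any 1 of the 4 libraries (adjusted p = 0.0791 to 0.195) and with no cluster removed (-0.99). At 24h 9 members were called, 4 higher (Setd7, Kdm6b, Kmt2e and Kmt2c) and 5 lower (Prmt8, Smyd1, Kdm3a, Wdr5 and Suv39h2), with 11.5% of all genes called (7.7% higher and 3.84% lower). With no cluster removed 4 members and 1205 genes were called at 24h, and without 1 library 2 to 6 members, the 2 without ES replicate 2 or 24h replicate 2. Prmt8 and Smyd1, with 31 and 12 UMIs at 24h, lost the 24h call in 4 and 5 of 12 alternatives. At 48h 14 were called, 6 higher (Setd7, Kmt2c, Kdm6b, Suv39h1, Kmt2e and Prmt2) and 8 lower (Prmt8, Smyd1, Suv39h2, Kdm3a, Wdr5, Setd6, Kdm5b and Prmt1), with 31.2% of all genes called (18% higher and 13.2% lower). Prmt8 and Smyd1, with 18 and 7 UMIs at 48h, passed the filter on low counts only through libraries in which they are higher. The 48h call of Prmt2 (1.03) was lost in 8 of 12 alternatives, and that of Prmt1 (-1.10) without 48h replicate 1 or either ES replicate. These comparisons share the ES libraries, and each 24h and 48h group had 1 library in each of 2 sequencing projects.

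Setd7 measured 2.24 and 2.27 CPM at 9h, 7.24 and 6.22 CPM at 24h and 22.3 and 14.7 CPM at 48h, where ES measured 1.99 and 2.41 CPM. The 9h libraries lay within the range of ES, and the later ones lay above it. The log2 fold change was 1.61 ± 0.31 at 24h (adjusted p = 0.0027) and 3.07 ± 0.32 at 48h (adjusted p = 4.11e-06). With no cluster removed the 48h value was 2.06, still called, and the 24h value was 0.65 (adjusted p = 0.393), and the latter was 1.45 (adjusted p = 0.0544) without ES replicate 1. Wdr5 measured 60.6 and 58.8 CPM at 9h, 39.2 and 32.5 CPM at 24h and 29.8 and 28.0 CPM at 48h, with log2 changes from ES of -1.19 ± 0.20 at 24h (adjusted p = 0.00118) and -1.50 ± 0.21 at 48h (adjusted p = 4.46e-05). Kdm5b measured 177 and 174 CPM at 9h, 153 and 116 CPM at 24h and 112 and 71.9 CPM at 48h, and was called at 48h (-1.35 ± 0.33, adjusted p = 0.00486).

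The 2 Suv39h genes crossed over between ES and 48h. Suv39h1 went from 8.32 and 8.88 CPM in ES to 18.5 and 24.2 CPM at 48h (1.31 ± 0.21, adjusted p = 0.000157), and Suv39h2 from 20.7 and 22.3 CPM to 7.50 and 5.68 CPM (-1.71 ± 0.28, adjusted p = 0.000232). At 24h the log2 change of Suv39h2 was -1.03 ± 0.28 (adjusted p = 0.0208), a call that was lost without either ES replicate or 24h replicate 2 (log2 changes of -1.12, -1.02 and -0.86). Kdm3a measured 15.6 and 15.3 CPM at 9h, 15.8 and 12.4 CPM at 24h and 12.4 and 10.2 CPM at 48h, against 29.8 and 35.2 CPM in ES. Its log2 change was -1.20 ± 0.34 at 24h (adjusted p = 0.0283) and -1.53 ± 0.35 at 48h (adjusted p = 0.0026), and the 24h call needed each of the 4 libraries (-1.42 to -1.09 without one of them) and was lost with no cluster removed (-1.16, adjusted p = 0.0935). Setd6, at 11.03 and 5.82 CPM at 48h and 24.6 and 22.3 CPM in ES, was not called without 48h replicate 2 (-1.17) or ES replicate 1 (-1.49, adjusted p = 0.0686). Its iXEN against ES call (-1.26) was lost without any 1 of the 4 libraries (-1.54 to -1.23) and with no cluster removed (-1.32, adjusted p = 0.0527). Between 24h and 48h Setd7 (1.46 ± 0.30, adjusted p = 0.00686) and Kmt2c (1.15 ± 0.31, adjusted p = 0.0248) were higher at 48h and Kdm7a was lower (-1.03 ± 0.32, adjusted p = 0.0485), with 8.9% of all genes called (5.26% higher and 3.64% lower). Setd7 was not called without 24h replicate 2 (1.33) or 48h replicate 1 (1.10), with no cluster removed (1.42, adjusted p = 0.0719) or with the 4 compared libraries modelled alone (1.41, adjusted p = 0.052), Kmt2c without either 24h replicate or 48h replicate 2 (1.02 to 1.14), and Kdm7a without either 24h replicate or 48h replicate 2 (-0.75 to -1.24), with no cluster removed (-1.08, adjusted p = 0.0573), with the 4 compared libraries alone (-1.08, adjusted p = 0.125) or with a replicate block (just under 2-fold, adjusted p = 0.0473).

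Few members were called between the converted cells and the cells they were converted towards. XEN-iPS against ES gave 3 called members, with 15.3% of all genes called (10.9% higher and 4.46% lower). Setd7 was higher in XEN-iPS (1.27 ± 0.31, adjusted p = 0.0101), and Kdm2b (-1.77) and Ehmt2 (-1.31) were lower. Setd7 was not called without either ES replicate (1.17 and 1.44), without XEN-iPS replicate 2 (0.75), with no cluster of cells removed (1.25, adjusted p = 0.0531) or with the 4 compared libraries modelled alone (1.32, adjusted p = 0.142). Without XEN-iPS replicate 1 or replicate 2, Kdm2b stood at -1.64 and -1.85 and Ehmt2 at -1.15 and -1.44, called in both. iXEN against XEN gave 5 called members, with 20.6% of all genes called (14.9% higher and 5.67% lower). Prmt8, Kdm7a and Kdm5b were higher in iXEN and Smyd5 and Smyd4 were lower. Prmt8 had 6 and 2 UMIs in the iXEN libraries and none in XEN, and with replicate 2 under the floor no fold is given. The call was lost in 4 of 11 alternatives, without iXEN replicate 1 or either XEN replicate among them. Smyd4 measured 9.14 and 6.62 CPM in iXEN and 13.6 and 18.9 CPM in XEN (-1.04 ± 0.23, adjusted p = 0.00464), and was not called without XEN replicate 2 (-0.88) or iXEN replicate 2 (-0.88) or with the 4 compared libraries modelled alone (-1.04, adjusted p = 0.0512). iXEN replicate 1 held 617 cells of a cluster with markers of differentiating cells and replicate 2 held 29, and removing that cluster from every library gave 5 called members, 2 higher and 3 lower.

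Whether a member's change over one conversion was the reverse of its change over the other was tested with the contrast of XEN-iPS minus XEN against ES minus iXEN. The difference was called for 13 of 56 members (23.2%), 6 positive and 7 negative, where 25.7% of all genes were called (17.9% positive and 7.84% negative). The XEN and ES libraries came from the same sequencing project and the XEN-iPS and iXEN libraries from others. In this contrast, sequencing project and converted against starting cells therefore cannot be told apart. Kdm2b (-2.32 ± 0.29, adjusted p = 0.000101) and Ehmt2 (-2.24 ± 0.30, adjusted p = 0.00016) had negative log2 changes over both conversions, of -0.78 and -0.96 from XEN to XEN-iPS and -1.54 and -1.28 from ES to iXEN. Kdm7a (2.19 ± 0.45, adjusted p = 0.00278) had positive changes over both, of 1.29 and 0.90. Prmt1, Prmt5, Prmt7 and Smyd5 were lower in iXEN than in ES, with log2 changes of -1.78 to -1.19, and their XEN-iPS against XEN values lay between -0.09 and 0.12, as means of duplicates that were far apart for Prmt1 (260 and 100.4 CPM), Prmt7 (38.3 and 20.9 CPM) and Smyd5 (62.1 and 34.1 CPM). Leaving out 1 library moved the Prmt1 difference of -1.73 to between -2.61 and -1.23. Setd7 changed more from ES to iXEN (3.53 against -1.75), and Kdm5b more from XEN to XEN-iPS (2.89 against -1.52), and with no cluster removed these differences stood at 1.68 (adjusted p = 0.0521) and 0.96 (adjusted p = 0.101), neither called. The Kdm5b difference was also not called without either ES replicate (1.30 and 1.38), either XEN replicate (1.24 and 1.43), XEN-iPS replicate 2 (1.05) or iXEN replicate 1 (1.10). For Suv39h1 the contrast was -0.23 ± 0.29 (adjusted p = 0.581) and for Prmt2 -0.09 ± 0.40 (adjusted p = 0.897).

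**Figure D5:**
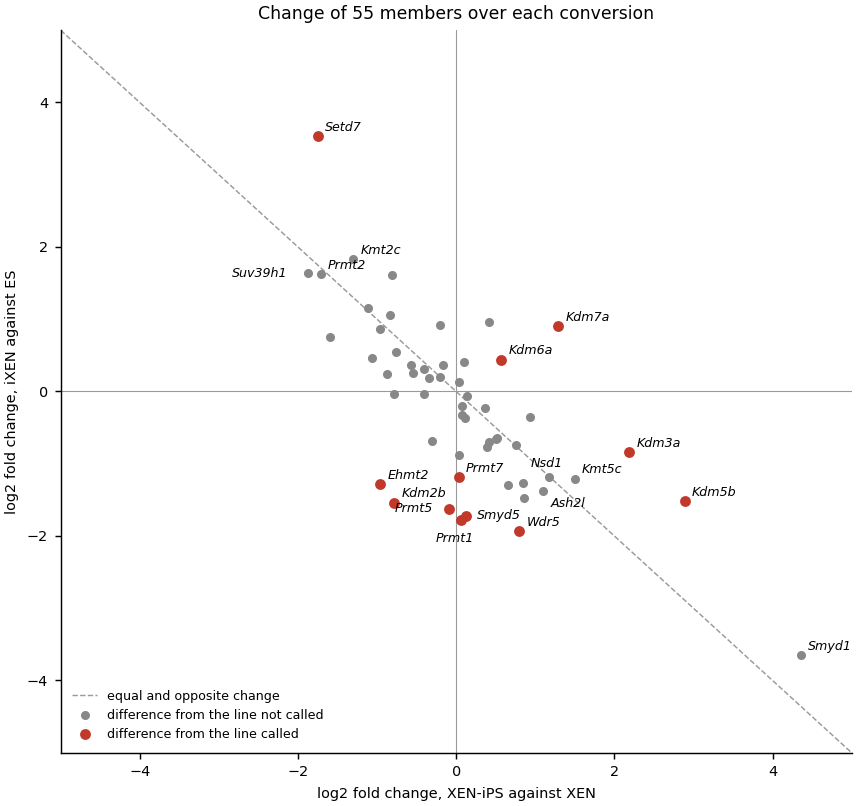
Log2 fold change of 55 members over XEN to XEN-iPS (horizontal axis) and over ES to iXEN (vertical axis), with the dashed line where the changes are equal and opposite, and in red the 12 members whose distance from that line was called. Prmt8, with no UMI in XEN, is not drawn. Kdm2b and Ehmt2 lie in the lower left, Kdm7a and Kdm6a in the upper right.

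The other genes of the pathway, 61 tested from lists chosen by function, were called at shares of 44.3% to 49.2% between pluripotent and endoderm stable states. ES against XEN called 27 of them (44.3%, 17 higher and 10 lower, with 45.6% of all genes), XEN-iPS against XEN 29 (47.5%, 18 higher and 11 lower, with 46.5% of all genes) and iXEN against ES 30 (49.2%, 10 higher and 20 lower, with 44.8% of all genes). The lists within them ranged for ES against XEN from 2 of 10 H3K9 partners and readers (20%) to 8 of 11 subunits of Polycomb repressive complex 2 (72.7%), which writes H3K27 methylation. Of these 11 subunits 6 were higher and 2 lower in ES than in XEN, 5 higher and 2 lower in XEN-iPS than in XEN, and 3 higher and 4 lower in iXEN than in ES. Phf19, one of its accessory subunits, was at 3.12 and 3.71 CPM in ES and 0.0459 and 0.172 CPM in XEN (4.95 ± 0.89, adjusted p = 0.000219), and at 2.70 and 12.2 CPM in XEN-iPS. Jarid2, named here after its values were seen, measured 323 and 308 CPM in ES, 15.97 and 15.4 CPM in XEN, 168 and 136 CPM in XEN-iPS and 36.05 and 26.1 CPM in iXEN. Rcor1, a scaffold of Kdm1a, measured 54.7 and 50.1 CPM in XEN and 10.5 and 12.1 CPM in XEN-iPS (-2.21 ± 0.21, adjusted p = 4.87e-07), and 55.7 and 77.5 CPM in iXEN against 11.3 and 11.2 CPM in ES. Phf2, a JmjC protein of the Kdm7 group, was 2.91 ± 0.27 higher in iXEN than in ES (adjusted p = 4.09e-07) and had a log2 change of -2.24 ± 0.26 from XEN to XEN-iPS (adjusted p = 4.29e-06).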

How the data were processed

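Gene expression was measured by 10x Chromium 3′ single-cell RNA-seq (v2 chemistry) in 20 libraries, 2 technical duplicates of 10 conditions. The authors deposited UMI counts per cell and gene made with SEQC on the mm10 build, as whole numbers without normalization. Here cells with at least 500 genes were kept. Clusters (Leiden, resolution 1) with at least 1000 CPM of fibroblast or 2-cell markers were removed, as was a differentiating-like cluster of the ES libraries, 6014 cells in all. No doublet caller was run, so doublets remain.

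UMIs of 107274 cells were summed per library (45406709 to 126349921, median 77488703). All 20 libraries entered a single model in edgeR 4.0.16 (R 4.3.3; TMM scaling, filterByExpr, quasi-likelihood test, 10 residual degrees of freedom), with Benjamini-Hochberg adjustment over 16719 genes. Calls needed an adjusted p under 0.05 and a log2 change of at least 1. On simulated counts for ES against XEN, 195 of 200 changed genes (97.5%) were recovered with 7 false calls and 0 sign errors, over 16719 genes. The simulation used a single fixed dispersion and changed only these 200 genes. It therefore cannot give the error rates at the spread and the share of changed genes of the real libraries. CPM are TMM-scaled. DESeq2 1.42.0 was an alternative.

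Named members were up to 4 called members with the highest and up to 4 with the lowest log2 change per comparison at a mean of at least 5 CPM, plus the H3K9 writers, H3K27 and H3K4 demethylases, Kmt2 and Setd1 genes, Dot1l, Prmt1, Prmt5 and Prmt8, and for related genes up to 2 in each direction. Others were named after their values were seen. The members and lists were chosen with earlier results of these data known. Sequencing project was read from the deposited cell table names and not from the sample labels. The SEs come from the fitted model and, like the SDs, include the spread between the technical duplicates. Floors cover counting error only.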

Additional observations from a re-analysis of the deposited data

Results flagged for a closer look

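The change over XEN to XEN-iPS and the reversed change over ES to iXEN were compared in a test of the difference itself. It was called (edgeR, adjusted p under 0.05 and at least 2-fold) for 13 of 56 members, where 25.7% of all genes were called. The differences, as XEN-iPS minus XEN less ES minus iXEN on the log2 scale, were -2.32 for Kdm2b, -2.24 for Ehmt2, -1.73 for Prmt1, -1.71 for Prmt5, -1.60 for Smyd5, -1.15 for Prmt7 and -1.13 for Wdr5. On the positive side they were 6.28 for Prmt8, 2.19 for Kdm7a, 1.78 for Setd7, 1.37 for Kdm5b, 1.35 for Kdm3a and 1.01 for Kdm6a. The value of Prmt8 rests on 0 UMIs in XEN and depends on the prior count. In this contrast the starting libraries shared a sequencing project and the converted libraries came from others. Sequencing project and conversion cannot be told apart in it. Kdm2b, Ehmt2, Prmt5, Smyd5 and Kdm7a were called under every alternative tried. Of 16 alternatives, the call was lost in 9 for Kdm3a, 8 for Kdm6a, 7 for Kdm5b, 7 for Prmt7, 5 for Prmt1, 4 for Prmt8, 1 for Setd7 and 1 for Wdr5. The Kdm3a difference was 0.57 without XEN-iPS replicate 1 (adjusted p = 0.314) and 1.34 with a replicate block (adjusted p = 0.0548).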

How the results depend on the processing

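Of 114 calls of members over the 14 contrasts, 67 were called under every alternative (13 of 14 for ES against XEN, 9 of 14 for XEN-iPS against XEN, 19 of 23 for iXEN against ES) and 47 were lost under at least 1. Of 97 results chosen by the rule for named genes 76 were called, and 46 of these were called under every alternative. Among 1350 alternative values 1209 kept direction and side of the threshold, 109 lost the call, 23 gained it and 9 changed sign. The sign changes were in uncalled values, ES against XEN: Kmt2a (0.09 with DESeq2 and with RLE scaling, 0.07 with no cluster removed, 0.05 with no filter on low counts, -0.08 to 0.14 leaving out a library) and Setdb2 (-0.04 without ES replicate 1, -0.16 without XEN replicate 2, up to 0.57 without XEN replicate 1). With no fold threshold there were 265 calls of related genes in place of 168. The called members were then 30 (ES against XEN), 28 (XEN-iPS against XEN) and 35 (iXEN against ES). Of all genes, 55.8%, 56.4% and 54.9% were called in these comparisons. Against XEN they were 12, 5 and 16 at day 7, day 14 and day 28, with 25.7%, 24.6% and 40% of all genes. Against ES they were 5, 13 and 27 at 9h, 24h and 48h, with 7.05%, 14.4% and 40% of all genes. The called members were also 6 (XEN-iPS against ES), 15 (iXEN against XEN) and 5 (48h against 24h), with 19.7%, 27.1% and 10.6% of all genes. With no cluster removed they were 1 at 9h, 4 at 24h and 1 for 48h against 24h, where all called genes went from 959, 1929 and 1488 to 729, 1205 and 970. For the difference between conversions the called members then split into 2 positive and 9 negative, where 4781 of all genes were called. With only the compared libraries modelled they were 5 at 9h (2481 of all genes), 1 for XEN-iPS against ES (582 against 2562), 3 for iXEN against XEN (2469 against 3445), 1 for 48h against 24h (565) and 8 for the difference between conversions (2416 against 4298). Day 14 against day 7 gave 2 with DESeq2 and 1 with sequencing project as a block. The cause was not tested.

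Leaving out 1 library at a time gave 15 to 20 called members for ES against XEN, 13 to 22 for XEN-iPS against XEN (22 without XEN-iPS replicate 2), 21 to 25 for iXEN against ES, 2 to 6 for day 7 (2 without XEN replicate 1 or day 7 replicate 2), 2 to 4 for day 14 and 6 to 8 for day 28 against XEN, 0 to 2 for 9h (0 without either 9h replicate), 2 to 6 for 24h (2 without ES replicate 2 or 24h replicate 2) and 11 to 13 for 48h against ES, 2 to 6 for XEN-iPS against ES, 4 to 9 for iXEN against XEN (9 without iXEN replicate 1), 0 to 3 for 48h against 24h and 8 to 14 for the difference between conversions (8 without either ES replicate or XEN replicate 1). Called genes over all genes tested ranged over 145 to 307 for 9h (959 with every library), 858 to 1471 for 24h (1929), 404 to 1605 for 48h against 24h (1488), 1681 to 2861 for day 7 (3084), 1806 to 2539 for day 14 (3089), 1011 to 2784 for XEN-iPS against ES (2562), 1924 to 2998 for iXEN against XEN (3445) and 2845 to 4993 for the difference between conversions. The lone library left was assumed to vary like the others. For contrasts given without a range over all genes, the member counts have no background beside them.

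The replicate numbers are shared numbers only: deviations of same-numbered libraries correlated at -0.14 to 0.317 (median 0.00159, 8 of 45 pairs over 0.1). With a replicate block the counts were 14 for ES against XEN, 15 for XEN-iPS against XEN, 23 for iXEN against ES, 7 for day 28, 2 for 48h against 24h and 12 for the difference between conversions. The called genes over all genes were 7609, 7757, 7429, 5057, 1464 and 4266 in the same order. RLE scaling moved the median over all genes from 0.035 to 0.128 for ES against XEN, from 0.0277 to 0.138 for XEN-iPS against ES and from 0.185 to 0.293 for the difference between conversions. Removing the differentiating-like cluster from every library was chosen after seeing the data. Members at a few UMIs, such as Prmt8 and Smyd1, are limited by depth, and duplicates that are technical leave variation between cultures unmeasured.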

Other observations

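Of 12 genes of cofactor metabolism tested, which supply or consume the methyl donor or the demethylases' cofactors, 5 (41.7%) were called for ES against XEN, 4 (33.3%) for XEN-iPS against XEN and 4 (33.3%) for iXEN against ES, where 45.6%, 46.5% and 44.8% of all genes were called. Tdh, the threonine dehydrogenase known to feed one-carbon metabolism in mouse ES cells, measured 266 and 310 CPM in ES, 0.349 and 0.308 CPM in XEN, 121 and 157 CPM in XEN-iPS and 4.31 and 1.62 CPM in iXEN. Its log2 fold change was 9.77 ± 0.54 for ES against XEN (edgeR, adjusted p = 3.68e-09) and -6.60 ± 0.46 for iXEN against ES (adjusted p = 4.07e-08). Shmt2, the mitochondrial serine hydroxymethyltransferase, measured 49.1 and 64.7 CPM in ES and 14.7 and 9.23 CPM in iXEN (-2.25 ± 0.32, adjusted p = 3.36e-05). Its log2 difference was 0.94 for ES against XEN (adjusted p = 0.0174, short of 2-fold) and 0.00 for XEN-iPS against XEN (adjusted p = 0.997). Gldc, of the glycine cleavage system, measured 14.8 and 14.7 CPM in ES and 46.3 and 60.6 CPM in XEN (-1.86 ± 0.40, adjusted p = 0.000945). In the conversions Gldc was not called, at 0.22 for iXEN against ES (adjusted p = 0.645) and -0.42 for XEN-iPS against XEN (adjusted p = 0.37, 44.2 and 35.7 CPM in XEN-iPS). Idh1 and Idh2, which make the 2-oxoglutarate that JmjC enzymes use, were not called between these states. During the conversions Idh2 was higher than in XEN at day 7 (1.85, adjusted p = 0.000811) and day 14 (1.58, adjusted p = 0.00221) and higher than in ES at 9h (1.10, adjusted p = 0.0445) and 48h (1.35, adjusted p = 0.00313), and Idh1 was higher than in ES at 24h (1.09, adjusted p = 0.0163) and 48h (1.86, adjusted p = 0.000115). Gldc, Shmt2, Idh1 and Idh2 were named after their values were seen.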
